A study of Mus musculus with 18 samples.

Results

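Of the 18 arrays of a study of myelinating mouse dorsal root ganglion cultures, 6 were of day 22. Of these, 3 poor and 3 rich in neuronal RNA were chosen by their own neuronal signal. The measure was the mean over 16 genes that neurons of the peripheral nervous system express. The 3 lowest arrays were called poor and the 3 highest rich, and the 2 sets were then described across all genes, with macrophage, interferon, myelin and lipid genes in view.

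Dorsal root ganglia hold the cell bodies of sensory neurons, whose axons Schwann cells wrap in myelin. A myelinating Schwann cell needs contact with an axon, makes large amounts of cholesterol, fatty acids and sphingolipids for its membrane, and is driven by the transcription factors Sox10 and Egr2. Macrophages of the nerve clear debris of axons and myelin, load themselves with the lipid and express complement, Fc receptors and lysosomal enzymes. Interferon-stimulated genes answer type I and type II interferon through the STAT factors in many cell types.

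All cultures were explants of C57BL/6J ganglia taken at E13.5 and kept on matrigel in growth medium for 12 days. They were then given myelination medium and collected at day 22 or day 10, or at day 0 just before it was added. The poor and the rich arrays differ in no labelled treatment, genotype or time. Each day had 3 batches, which the series' design text calls embryo pools gathered on separate occasions and the sample titles number as mouse 1 to 3, with 2 technical arrays per batch.

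The 3 poor arrays were array 1 and array 2 of batch 1 and array 2 of batch 2. The 3 rich arrays were array 1 of batch 2 and both arrays of batch 3. Values below follow that order. The authors' value table stores 12 of the 18 arrays under another sample of the same day, so batches are known in 2 versions. In both versions batch 1 was poor on both arrays, batch 3 was rich on both, and batch 2 held 1 array of each kind. Poor and rich arrays are therefore not independent cultures, and batch and neuronal signal overlap. Deviations from the day 22 mean correlated between technical partners at 0.02, -0.50 and 0.23 across 22840 features with the array files' batches. With those of the value table they correlated at 0.43, -0.06 and 0.24. At day 10 the array files' partners had -0.33, -0.33 and 0.04, and the value table's 0.31, 0.18 and 0.0. At day 0 the array files' partners had -0.55, -0.43 and -0.24, and the value table's 0.48, -0.16 and 0.18. Slide also moved with the split: 2 poor arrays lay on slide 1 and 1 on slide 2, against 2 rich arrays on slide 2 and 1 on slide 3. Spots well above background made up 58.0, 59.1 and 54.8% on the poor arrays and 60.9, 57.1 and 57.1% on the rich arrays. Levels are log2 processed signals after subtraction of each array's 75th percentile, and differences are poor minus rich, from the mean of 3 arrays of each set.

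The neuronal means that set the order were 3.47, 3.51 and 3.61 on the poor arrays, against 4.08, 4.10 and 4.24 on the rich arrays. The neighbours at the threshold were thus 3.61 on the highest poor array and 4.08 on the lowest rich one. Of the 16 genes 13 were lower on every poor array than on every rich one, beside 21.8% of all 22855 features that were lower in this sense and 9.98% that were higher. These counts follow from the choice of arrays. The balance of lower and higher features depended on the scaling, with 4975 lower and 2281 higher here, 3328 lower and 2999 higher with median scaling, and 3822 lower and 2893 higher in the authors' value table. Snap25, a fusion protein of the presynaptic terminal, stood at 3.43, 4.69 and 4.64 on the poor arrays and at 5.61, 5.61 and 5.62 on the rich arrays, a difference of -1.36. It was lowest on array 1 of batch 1, and the rich arrays were nearly equal. Nefh, the heavy neurofilament chain of large axons, had 3.89, 4.78 and 4.24 on the poor arrays and 5.45, 5.24 and 5.60 on the rich arrays. Rbfox3, the nuclear protein NeuN, had 2.05, 2.27 and 2.15 on the poor arrays, against 3.11, 3.06 and 3.38 on the rich arrays. Tubb3, the neuronal beta-tubulin, had 5.13, 5.05 and 5.09 on the poor arrays and 5.57, 5.46 and 5.67 on the rich arrays. The sets did not overlap, and the difference was -0.48. The synaptic vesicle calcium sensor Syt1 did not separate the sets, with 2.52, 1.22 and 1.81 on the poor arrays and 1.85, 1.93 and 2.12 on the rich arrays. Elavl4 and Syp also overlapped. In RNA of whole cultures, fewer neurons and less RNA per neuron cannot be told apart.

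**Figure D1:**
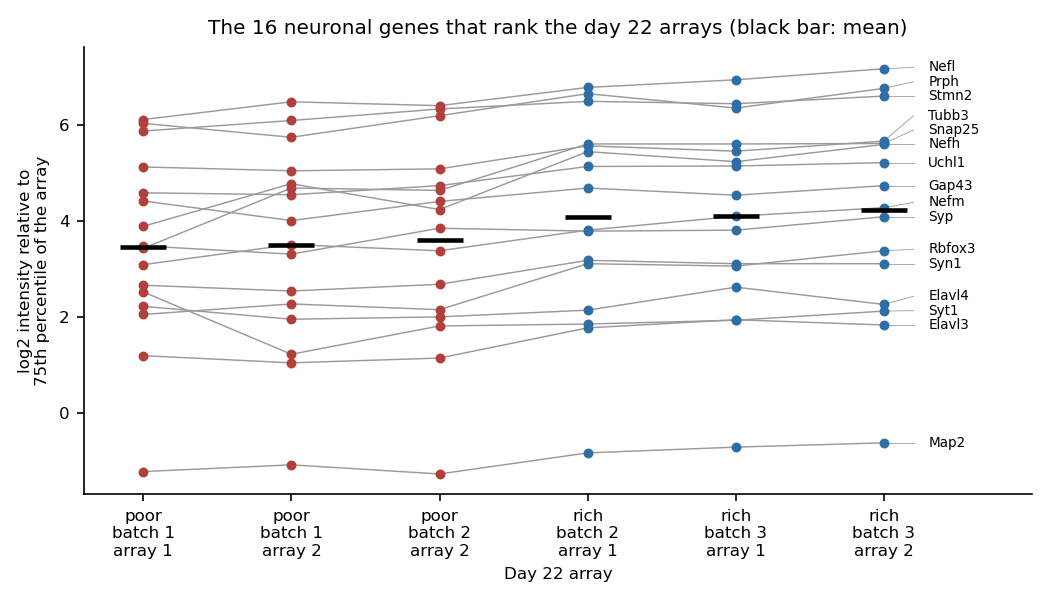
Levels of the 16 neuronal genes (y axis, log2 intensity above the array's 75th percentile) on the 6 day 22 arrays, poor in red and rich in blue. Grey lines join a gene's points and black bars are the array means, 3.47 to 3.61 on the poor arrays and 4.08 to 4.24 on the rich arrays.

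Other neuronal genes followed in part. Of 21 genes of synaptic vesicles and release 13 were lower on all poor arrays and 0 higher, against 21.8% and 9.98% of all features. The median difference was -0.43, where the median of all features was -0.10. Cplx1, a complexin that clamps release, had 2.33, 2.66 and 2.61 on the poor arrays and 3.22, 3.47 and 3.63 on the rich arrays. Vamp1, a vesicle fusion protein, had 0.18, 0.32 and 0.25 on the poor arrays, against 1.09, 0.99 and 0.87 on the rich arrays. Both sets were tight and did not overlap. Among 16 neuronal ion channels 8 were lower and 1 higher, with a median of -0.40. The higher one was Scn8a, a sodium channel of the nodes of Ranvier, with 1.93, 0.63 and 1.27 on the poor arrays and 0.14, 0.28 and 0.44 on the rich arrays, and its other probe moved the opposite way.

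Markers of sensory neurons were less uniform, with 6 of 23 lower on every poor array, 0 higher and a median of -0.19. Of all features 21.8% were lower in this sense, so the count of lower markers was near that share. Pou4f1, a transcription factor of sensory neurons, had 2.29, 2.18 and 2.23 on the poor arrays and 2.86, 2.99 and 3.09 on the rich arrays. Scn10a, a sodium channel of nociceptors, had 3.86, 3.75 and 4.02 on the poor arrays and 4.48, 4.33 and 4.68 on the rich arrays. Neuropeptide genes did not follow this order. Tac1, the precursor of substance P, had 6.94, 5.32 and 6.73 on the poor arrays and 5.37, 5.55 and 6.19 on the rich arrays. Calca, the precursor of the peptide CGRP, had 7.99, 7.72 and 8.44 on the poor arrays, against 7.51, 7.85 and 8.06 on the rich arrays. For both, array 2 of batch 1 was the lowest poor array and the sets overlapped. Over the whole sensory list array 1 of batch 1 had the second highest mean, with 1.59, 1.15 and 1.39 on the poor arrays and 1.40, 1.47 and 1.67 on the rich arrays. Of 12 genes of the axon injury response 1 was lower and 0 higher, below the shares of all features, 21.8% lower and 9.98% higher. Sox11, a factor of growing axons, had -0.51, -0.45 and -0.69 on the poor arrays, against 0.24, 0.10 and -0.06 on the rich arrays. Atf3, the injury-induced transcription factor, overlapped with 4.04, 2.74 and 4.25 on the poor arrays and 4.28, 2.97 and 3.83 on the rich arrays.

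Macrophage genes were higher on the poor arrays almost without exception. Of 22 markers tested, of 24 in the list, 21 were higher on every poor array than on every rich one and 1 was lower. The shares of all features were 9.98% higher and 21.8% lower, and the median difference of the list was 1.75. Cd68 had no matched probe and Cd163 did not pass the filter. Mean levels of the list were 4.03, 3.38 and 3.76 on the poor arrays and 1.98, 1.77 and 2.58 on the rich arrays, against 0.66 to 2.13 on the day 10 arrays. Lyz2, the lysozyme of macrophages, had 5.89, 5.25 and 5.85 on the poor arrays and 3.92, 3.66 and 4.44 on the rich arrays, a 3.15-fold higher mean on the poor arrays. The highest rich array was well below the lowest poor one. Aif1, the calcium-binding protein Iba1, had 3.69, 2.89 and 3.31 on the poor arrays and 0.90, 0.71 and 1.37 on the rich arrays. This was the largest difference of the list, 2.30. Csf1r, the receptor for the macrophage growth factor CSF1, had 6.59, 5.83 and 6.25 on the poor arrays, against 4.28, 4.10 and 4.86 on the rich arrays. The pan-leukocyte phosphatase Ptprc had -0.42, -1.13 and -0.69 on the poor arrays and -2.84, -3.00 and -2.10 on the rich arrays. The mannose receptor Mrc1 had 4.87, 3.57 and 4.24 on the poor arrays and 2.05, 2.05 and 2.81 on the rich arrays. Cybb, the catalytic chain of the phagocyte oxidase, had -0.18, -1.16 and -0.66 on the poor arrays, against -3.00, -3.09 and -2.10 on the rich arrays. Across these genes array 1 of batch 1 was highest among the poor arrays and array 2 of batch 3 highest among the rich arrays.

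The exception was Itgam, the integrin chain CD11b, with 3.79, 5.05 and 4.78 on the poor arrays and 5.85, 5.71 and 5.78 on the rich arrays. It was named after its value was seen. Of its 2 other measured probes 1 moved the opposite way, so the probes of this gene disagree. The list median was 2.06 within slide 2 (1 poor and 2 rich arrays), 1.93 within batch 2 as filed and 1.73 within batch 2 of the value table (1 array of each kind). Since 21 members did not overlap, the direction of these values was fixed by the choice of arrays, and only their size is given.

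**Figure D2:**
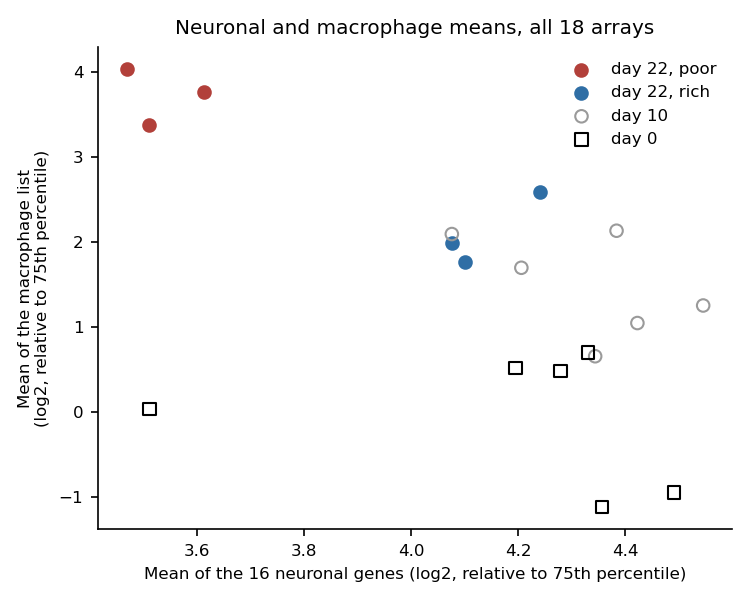
Mean of the macrophage list (y axis) against the mean of the 16 neuronal genes (x axis), both log2 relative to the 75th percentile, one point per array. The 3 poor day 22 arrays lie alone at the upper left with macrophage means of 3.38 to 4.03, while a day 0 array with a neuronal mean of 3.51 has a macrophage mean of 0.04.

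One day 0 array also had a low neuronal mean, 3.51, and its macrophage mean of 0.04 lay within the range of the day 0 arrays, -1.11 to 0.70. The other day 0 arrays had neuronal means of 4.20 to 4.49 and the day 10 arrays of 4.08 to 4.55.

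Promoters were read because the macrophage genes and, below, the sterol genes each moved together. Sequences are RefSeq's, build GRCm38.p6, the 250 bases before the gene's start. Of the 24 macrophage genes 18 had a sequence. The letters GAGGAAGT, a core bound by the myeloid factor PU.1 (gene Spi1), were sought on both strands and occurred in 1 of the 18 (5.6%), against 2.8% of all 27025 genes with a sequence. That gene is C1qc, which encodes a chain of the complement starter C1q and lies on the minus strand at chr4:136892915-136893164. The capitals mark the match, which is on the opposite strand of the gene and begins 195 bases before the start.
C1qc: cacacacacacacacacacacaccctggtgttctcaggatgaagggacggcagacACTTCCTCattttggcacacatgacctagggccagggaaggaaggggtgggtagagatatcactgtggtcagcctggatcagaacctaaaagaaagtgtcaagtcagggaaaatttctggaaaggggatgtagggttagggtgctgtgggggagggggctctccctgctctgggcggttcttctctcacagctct
C1qc itself had 5.72, 4.83 and 5.21 on the poor arrays, against 3.43, 3.27 and 4.01 on the rich arrays. Spi1 had -1.43, -2.13 and -1.86 on the poor arrays and -3.52, -3.88 and -3.07 on the rich arrays, again with no overlap.

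Of 24 genes of lipid-laden and lysosomal phagocytes, 14 were higher and 0 lower, against 9.98% and 21.8% of all features. The list median was 0.52. Lpl, a lipase that releases fatty acids from lipoproteins, had 4.55, 3.10 and 3.98 on the poor arrays and 0.41, 1.46 and 2.35 on the rich arrays. The scavenger receptor Cd36 had 1.93, 0.84 and 1.76 on the poor arrays, against -1.95, -0.46 and 0.33 on the rich arrays. Its values were spread more widely on the rich arrays, and the sets did not overlap. Msr1, another scavenger receptor, had 0.13, -0.68 and -0.34 on the poor arrays and -2.24, -2.81 and -1.86 on the rich arrays. Gpnmb, a glycoprotein of phagocytes under lipid load, had 5.51, 4.81 and 5.49 on the poor arrays and 3.38, 3.51 and 4.28 on the rich arrays. Apoe, the apolipoprotein that carries cholesterol between cells, differed by only 0.44, with 8.72, 8.45 and 8.91 on the poor arrays and 8.17, 8.20 and 8.40 on the rich arrays. Several members did not separate the sets. The tetraspanin Cd9 had 6.64, 6.92 and 7.39 on the poor arrays, against 7.28, 7.30 and 7.38 on the rich arrays. The cholesterol exporters Abca1 and Abcg1 overlapped, with differences of 0.15 and -0.31. Macrophage markers moved with this list, and their part in it was not tested.

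Interferon-stimulated genes did not follow the neuronal order. Of 24 tested 3 were higher on all poor arrays, 0 were lower and 21 overlapped, with a median of 0.16. Of all features 9.98% were higher and 21.8% lower in this sense. List means were 2.19, 0.91 and 1.08 on the poor arrays and 1.17, 1.47 and 0.74 on the rich arrays, so that array 1 of batch 1 stood above all others and the rest were mixed. Ifit1, which binds foreign RNA, had 0.42, -1.85 and -1.93 on the poor arrays, against -1.60, -0.22 and -2.89 on the rich arrays. Irf7, the factor that amplifies type I interferon, had -0.19, -2.66 and -2.60 on the poor arrays and -2.19, -1.32 and -2.89 on the rich arrays. In both genes array 1 of batch 1 was highest and array 1 of batch 3, a rich array, came next. The list median was -0.21 without array 1 of batch 1 and -0.03 without array 2 of batch 3. The members that were higher on all poor arrays were the RNA sensors Oas1a and Oas2 and the membrane tether Bst2. Oas1a had 3.23, 1.30 and 1.57 on the poor arrays and 0.24, 0.42 and 0.44 on the rich arrays. Oas2 had 0.89, -1.97 and -2.04 on the poor arrays, against -2.81, -2.42 and -2.90 on the rich arrays, and its difference of 1.67 was 0.71 without array 1 of batch 1. Bst2 had 5.19, 3.66 and 4.29 on the poor arrays and 3.45, 3.48 and 3.48 on the rich arrays, a difference of 0.91, or 0.50 without that array. Macrophages also express these genes, macrophage markers were higher on the same arrays, and their part was not tested.

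In the list of complement and MHC class I, 8 of 17 genes were higher and 2 lower, against 9.98% and 21.8% of all features. The list median was 0.56. The central complement component C3 had 3.28, 2.74 and 2.24 on the poor arrays and 0.94, 1.16 and 0.90 on the rich arrays. Cfb, a protease of the alternative pathway, had -0.43, -1.07 and -1.24 on the poor arrays and -3.00, -2.09 and -2.92 on the rich arrays. Serping1, the inhibitor of C1, had 6.47, 5.68 and 6.20 on the poor arrays, against 5.0, 5.30 and 4.94 on the rich arrays. The class I heavy chain H2-D1 had 5.92, 4.97 and 5.15 on the poor arrays and 4.76, 4.57 and 4.65 on the rich arrays. C4b, a component of the classical pathway, went the other way with 5.03, 4.64 and 4.98 on the poor arrays and 5.46, 5.24 and 5.27 on the rich arrays. The list median was 0.26 without array 1 of batch 1 and 0.18 within batch 2 of the value table.

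Of 5 class II genes tested 1 was higher and 2 lower, against 9.98% and 21.8% of all features. The invariant chain Cd74 had -2.75, -2.69 and -3.42 on the poor arrays, against -1.66, -0.83 and -1.55 on the rich arrays. H2-DMb1, which helps load peptides, had 0.46, -0.04 and 0.56 on the poor arrays and -1.0, -1.01 and -0.53 on the rich arrays. H2-Aa and Ciita did not pass the filter.

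Among 18 chemokines 8 were higher and 1 lower, against 9.98% and 21.8% of all features, with a list median of 0.64. Cxcl12, which attracts leukocytes through CXCR4, had 4.80, 2.65 and 3.41 on the poor arrays and 1.31, 0.43 and 0.02 on the rich arrays, an 8.19-fold higher mean on the poor arrays. Ccl3, which attracts monocytes and macrophages, had 1.89, 1.06 and 1.67 on the poor arrays and -1.06, -0.28 and 0.26 on the rich arrays. Ccl2, which recruits monocytes, overlapped with 3.93, 4.20 and 3.30 on the poor arrays and 3.04, 3.42 and 2.90 on the rich arrays. Cxcl14 had 3.32, 5.45 and 4.05 on the poor arrays and 5.36, 5.40 and 5.26 on the rich arrays, so that array 2 of batch 1 stood with the rich set.

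**Figure D3:**
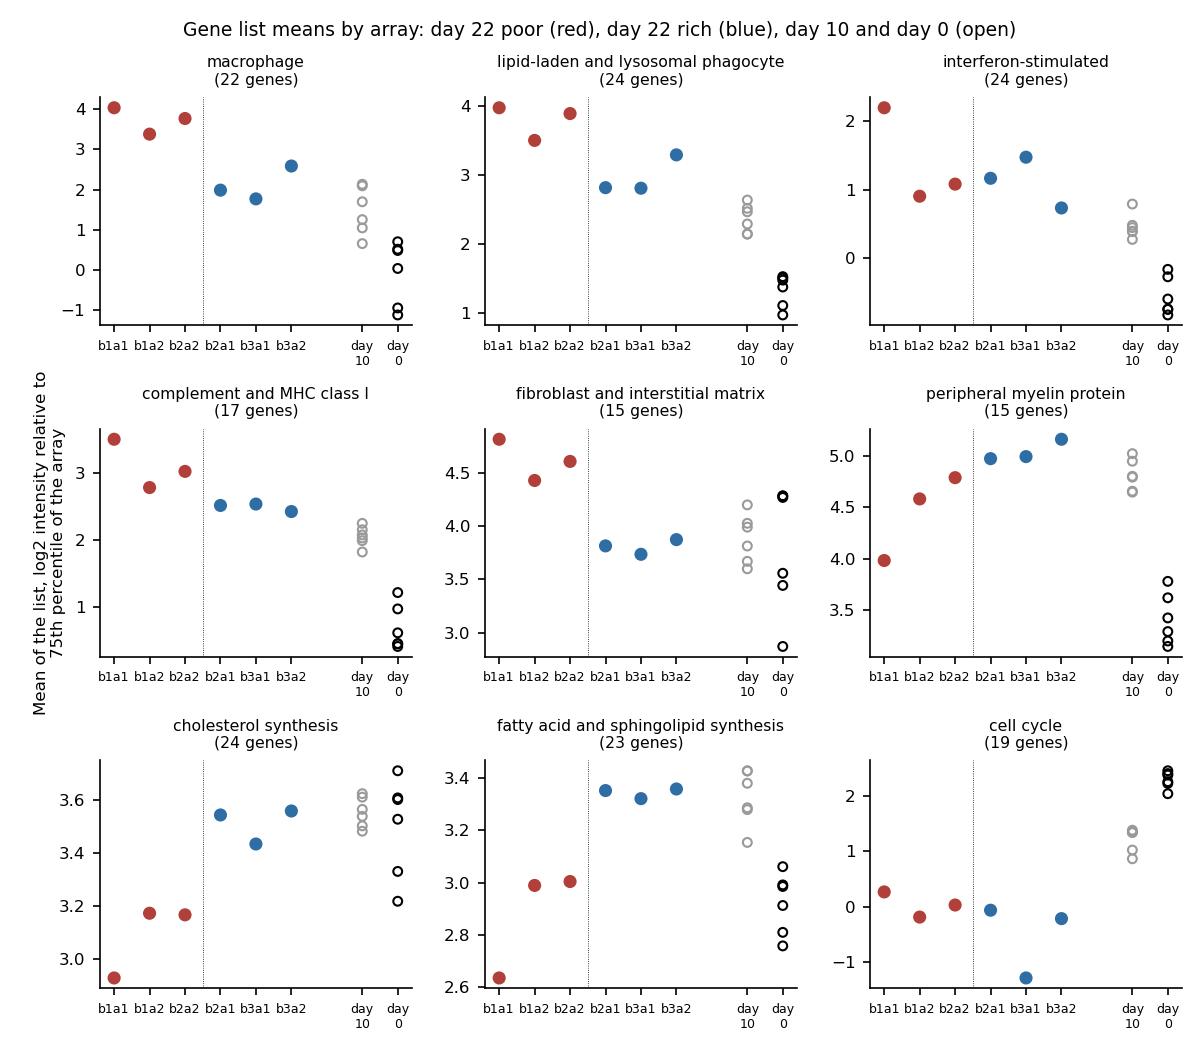
Mean of 9 gene lists (y axis, log2 intensity relative to the 75th percentile) on each day 22 array, poor in red, rich in blue, with the 6 day 10 and 6 day 0 arrays as open circles. Labels give batch and array. Macrophage and fibroblast means are higher and cholesterol and fatty acid means lower on all 3 poor arrays, and interferon-stimulated means overlap.

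Myelin genes were lower on the poor arrays, most of all on array 1 of batch 1. Of 15 peripheral myelin proteins 7 were lower on all poor arrays and 0 higher, against 21.8% and 9.98% of all features. The list median was -0.49. List means were 3.98, 4.58 and 4.79 on the poor arrays and 4.97, 4.99 and 5.16 on the rich arrays, against 4.65 to 5.02 on the day 10 arrays. Gjb1, a gap junction protein of noncompact myelin, had 0.53, 2.31 and 1.85 on the poor arrays and 2.54, 2.99 and 2.81 on the rich arrays. The junction protein Cldn19 had 0.71, 2.25 and 2.12 on the poor arrays, against 2.64, 2.84 and 2.72 on the rich arrays. Ncmap, a protein of noncompact myelin, had 4.09, 5.75 and 5.29 on the poor arrays and 6.17, 6.19 and 6.29 on the rich arrays. In each of these the lowest value was by far that of array 1 of batch 1. Without it the differences were -0.70 for Gjb1 (from -1.22), -0.55 for Cldn19 (from -1.04) and -0.69 for Ncmap (from -1.17), and the list median was -0.32.

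The other members lower on all poor arrays were Drp2, Gldn, Mag and Prx. Mag, an adhesion protein facing the axon, had 2.58, 3.73 and 3.89 on the poor arrays and 4.17, 4.28 and 4.24 on the rich arrays. The scaffold Prx, periaxin, had 6.45, 7.20 and 7.03 on the poor arrays and 7.39, 7.48 and 7.61 on the rich arrays. Its partner Drp2 had -0.04, 1.45 and 1.40 on the poor arrays, against 1.85, 1.89 and 1.99 on the rich arrays. Pmp22, a compact myelin protein, overlapped, with 6.90, 7.29 and 7.64 on the poor arrays and 7.61, 7.76 and 7.68 on the rich arrays. Mbp had 3.42, 3.54 and 3.97 on the poor arrays and 3.93, 3.96 and 4.23 on the rich arrays, and its 2 other probes moved the opposite way. Array 2 of batch 2 lay among the rich arrays for Pmp22 and Mbp. Pmp2, a fatty acid binding protein of myelin, was not lower, with 2.14, 1.05 and 2.36 on the poor arrays and 1.56, 1.32 and 2.11 on the rich arrays. Within slide 2 the list median was -0.05, and within batch 2 it was -0.15 as filed and -0.43 by the value table.

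Of 19 regulators of Schwann cell myelination 8 were lower and 2 higher, against 21.8% and 9.98% of all features. The count of higher members was near its share, and the median was -0.42. Egr2, the factor that switches on myelin genes, had 1.88, 3.33 and 2.47 on the poor arrays and 3.60, 3.82 and 3.68 on the rich arrays. Sox10 had 4.40, 5.15 and 5.08 on the poor arrays, against 5.45, 5.51 and 5.44 on the rich arrays. The neuregulin receptor subunit Erbb2 had 0.97, 1.96 and 1.18 on the poor arrays and 2.13, 2.08 and 2.00 on the rich arrays. Pou3f1, a factor of promyelinating cells, overlapped with 2.62, 4.94 and 3.79 on the poor arrays and 4.93, 5.55 and 4.80 on the rich arrays. The list median was -0.26 without array 1 of batch 1, -0.14 within slide 2 and -0.21 or -0.10 within batch 2 as filed or by the value table. Nfatc4, a calcineurin-regulated factor, was higher with 0.93, 0.47 and -0.01 on the poor arrays and -0.48, -0.61 and -0.85 on the rich arrays. Immature and repair Schwann cell genes had 1 higher and 3 lower of 15, no more than the shares of all features, 9.98% higher and 21.8% lower. Ngfr, the low-affinity neurotrophin receptor, had 5.86, 5.97 and 6.00 on the poor arrays and 6.49, 6.28 and 6.48 on the rich arrays. Igfbp2, which binds insulin-like growth factors, was the higher one with 2.58, 1.46 and 1.44 on the poor arrays and -0.54, 0.53 and 0.15 on the rich arrays. The glial protein S100b overlapped, with 4.12, 5.04 and 5.15 on the poor arrays, against 5.30, 5.14 and 5.32 on the rich arrays. Macrophage markers were higher on the same poor arrays, and their part in these lists was not tested.

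Most cholesterol synthesis genes were lower on the poor arrays. All 24 members had a difference below 0 at their brightest probe, and the median was -0.41. On all poor arrays 20 were lower than on any rich one and 0 higher, against 21.8% and 9.98% of all features. List means were 2.93, 3.17 and 3.17 on the poor arrays and 3.54, 3.43 and 3.56 on the rich arrays, against 3.48 to 3.62 on the day 10 arrays. Tm7sf2, a sterol reductase, had 3.63, 3.87 and 3.92 on the poor arrays, against 4.55, 4.25 and 4.70 on the rich arrays. Dhcr7, the last reductase of the pathway, had 0.83, 1.11 and 0.92 on the poor arrays and 1.78, 1.39 and 1.71 on the rich arrays. Stard4, a cholesterol carrier, had 2.37, 2.74 and 2.32 on the poor arrays and 3.00, 2.98 and 3.14 on the rich arrays. The members that overlapped were Hsd17b7, Lss, Msmo1 and Srebf2, which encodes the sterol-sensing factor SREBP2 and differed by -0.15. The other probe of Srebf2 differed by 1.34 and that of Fdft1 by 0.18, against -0.37 at the brightest probe of Fdft1. Medians were -0.35 without array 1 of batch 1, -0.33 within slide 2, and -0.39 or -0.26 within batch 2 as filed or by the value table. Since 20 members did not overlap, the direction of these medians was fixed by the choice of arrays, and only their size is given.

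A core of the sterol regulatory element, CACCCCAC, was sought on both strands of the 250 bases before the start. Of the 24 cholesterol genes 17 had a sequence and 2 held the letters (11.8%), as did 2 of 19 fatty acid and sphingolipid genes with a sequence (10.5%), Elovl7 and Sgms1, against 3.0% of all genes. The cholesterol genes with a match are shown with the match in capitals. Hmgcs1, at chr13:119690101-119690350 on the plus strand, encodes the synthase that makes HMG-CoA, and its match begins 136 bases before the start. Acat2, at chr17:12960726-12960975 on the minus strand, encodes a thiolase of the first step, and its match begins 181 bases before the start.
Hmgcs1: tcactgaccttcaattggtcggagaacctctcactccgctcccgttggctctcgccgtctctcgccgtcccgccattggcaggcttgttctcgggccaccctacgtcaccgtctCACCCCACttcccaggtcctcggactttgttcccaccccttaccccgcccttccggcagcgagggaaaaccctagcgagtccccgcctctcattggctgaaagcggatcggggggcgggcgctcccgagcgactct
Acat2: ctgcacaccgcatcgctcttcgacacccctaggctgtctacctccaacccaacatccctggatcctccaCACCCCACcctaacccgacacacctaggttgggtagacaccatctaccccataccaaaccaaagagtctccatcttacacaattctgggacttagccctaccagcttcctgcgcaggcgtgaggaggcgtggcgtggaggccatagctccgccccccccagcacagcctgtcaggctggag
Hmgcs1 had 6.63, 6.73 and 6.92 on the poor arrays, against 7.03, 7.13 and 7.36 on the rich arrays. Acat2 had 0.57, 0.31 and 0.59 on the poor arrays and 1.02, 0.64 and 1.15 on the rich arrays. Neither gene overlapped, and members without the letters in this window were lower too. Of the fatty acid and sphingolipid genes with the letters, Elovl7 was lower on all poor arrays, with a difference of -0.57. Sgms1 was not lower, with a difference of 0.12 and overlapping sets.

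Of 23 fatty acid and sphingolipid genes 18 were lower and 1 higher, against 21.8% and 9.98% of all features. The list median was -0.50. List means were 2.63, 2.99 and 3.00 on the poor arrays, against 3.35, 3.32 and 3.36 on the rich arrays and 3.15 to 3.43 on the day 10 arrays. Fasn, the fatty acid synthase, had -0.28, 0.08 and 0.22 on the poor arrays and 1.04, 0.52 and 0.97 on the rich arrays. Acly, which supplies cytosolic acetyl-CoA, had 5.27, 5.35 and 5.47 on the poor arrays and 6.17, 5.79 and 6.10 on the rich arrays. The desaturase Scd2 had 7.26, 7.49 and 7.77 on the poor arrays, against 7.91, 7.82 and 8.02 on the rich arrays. Srebf1, whose product drives fatty acid synthesis genes, had -0.58, -0.60 and -0.31 on the poor arrays and 0.21, 0.15 and 0.33 on the rich arrays. Enzymes of the galactolipids of myelin were lowest on array 1 of batch 1. Fa2h, which hydroxylates their fatty acids, had 1.81, 3.29 and 3.02 on the poor arrays and 3.69, 3.74 and 3.99 on the rich arrays. Ugt8a, the galactosyltransferase, had 0.67, 1.78 and 1.82 on the poor arrays and 2.19, 2.35 and 2.36 on the rich arrays. The higher one was Sptlc2, a subunit of serine palmitoyltransferase, by 0.20, and its other probe moved the opposite way. Its partner Sptlc1 overlapped with a difference of 0.05. The list median was -0.44 without array 1 of batch 1, -0.35 within slide 2, and -0.34 or -0.40 within batch 2 as filed or by the value table. With 18 members lower without overlap, the direction of these medians too was fixed by the choice of arrays.

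**Figure D4:**
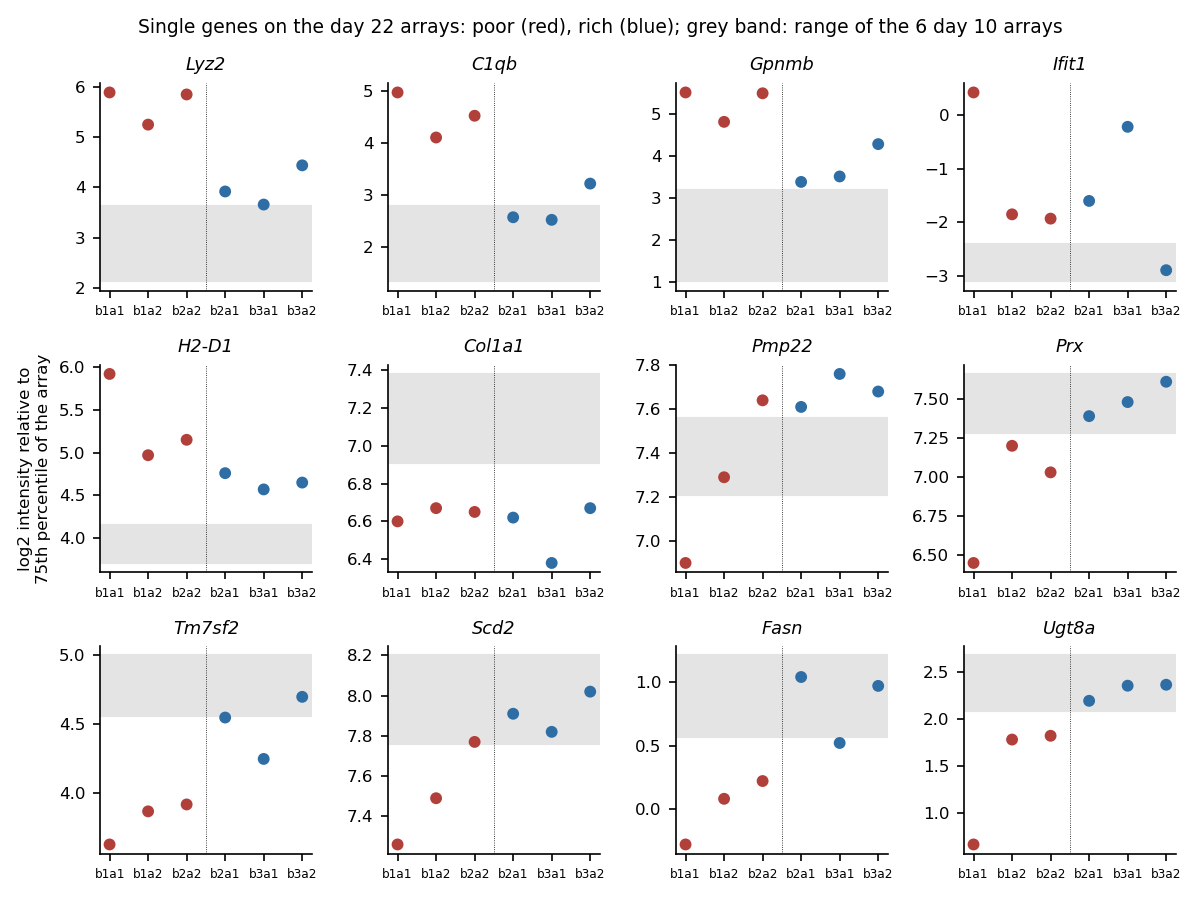
Levels of 12 genes (y axis, log2 intensity relative to the 75th percentile, own scale per gene, not from 0) on the day 22 arrays, poor in red and rich in blue, with the range of the 6 day 10 arrays as a grey band. Lyz2 stands above the band on every day 22 array, and Tm7sf2, Fasn, Prx and Ugt8a lie below it on the 3 poor arrays, as do 2 rich arrays for Tm7sf2 (4.55 and 4.25) and 1 for Fasn (0.52).

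Of 15 fibroblast and interstitial matrix genes 9 were higher and 0 lower, against 9.98% and 21.8% of all features, with a median of 0.70. List means were 4.81, 4.43 and 4.61 on the poor arrays and 3.81, 3.73 and 3.87 on the rich arrays. Mfap5, a microfibril protein, had 3.06, 2.22 and 3.03 on the poor arrays and 0.46, 0.46 and 0.02 on the rich arrays. The proteoglycan Lum had 5.92, 5.42 and 5.90 on the poor arrays, against 3.51, 4.69 and 4.61 on the rich arrays. The fibulin Fbln1 had 2.24, -0.11 and 1.46 on the poor arrays and -0.42, -1.29 and -0.77 on the rich arrays. Col1a1, the main chain of fibrillar collagen, did not separate the sets, with 6.60, 6.67 and 6.65 on the poor arrays and 6.62, 6.38 and 6.67 on the rich arrays. Within slide 2 the list median was 0.85, and its direction was fixed because 9 of the 15 members did not overlap. The part of fibroblast and macrophage RNA in the lower levels of neuronal, myelin and lipid genes was not tested.

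Markers of other cell types were mixed. Their lists are short, and of all features 9.98% were higher and 21.8% lower on all poor arrays. Of 7 endothelial genes 2 were higher and 2 lower. The lower ones included Cldn5, which was well above background on no day 22 array. The sialomucin Emcn had 0.14, -0.92 and 0.01 on the poor arrays and -2.02, -1.68 and -2.04 on the rich arrays, while the defining marker Pecam1 overlapped with -3.86, -3.64 and -4.02 on the poor arrays and -3.76, -4.15 and -3.89 on the rich arrays. Of 7 perineurial genes 2 were higher and 3 lower. Dhh, the hedgehog ligand of Schwann cells, had 4.90, 5.74 and 5.50 on the poor arrays and 6.01, 6.03 and 6.06 on the rich arrays. The hedgehog target Gli1 had 1.82, 1.01 and 1.54 on the poor arrays, against 0.01, 0.18 and -0.16 on the rich arrays. Cldn1, a tight junction protein, had -0.59, -1.85 and -0.77 on the poor arrays and -3.59, -2.80 and -3.26 on the rich arrays. Among 7 satellite glia genes 1 was higher and 1 lower. The potassium channel Kcnj10 had 3.41, 5.19 and 4.43 on the poor arrays and 5.27, 5.47 and 5.38 on the rich arrays. Tyrp1, a melanosome enzyme and 1 of 4 melanocyte genes tested, had 3.12, 5.45 and 5.51 on the poor arrays and 6.32, 6.23 and 5.72 on the rich arrays. Of 8 lymphocyte markers 3 passed the filter, and of these 1, Nkg7, was higher by 0.22. Neither of the 2 mast cell markers tested separated the sets. Among skeletal muscle markers 1 of 8 was tested, and it overlapped.

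Cell cycle genes had 2 of 19 members higher on all poor arrays and 0 lower, with a median of 0.59. Of all features 9.98% were higher and 21.8% lower in this sense, so the count of higher members was near that share. All 19 had a difference above 0, but in 17 of them the sets overlapped. List means were 0.27, -0.19 and 0.03 on the poor arrays and -0.07, -1.29 and -0.22 on the rich arrays, and without array 1 of batch 3 the median was 0.19. Mki67, a protein of dividing nuclei, had 1.63, 1.04 and 1.47 on the poor arrays and 1.16, -0.91 and 1.16 on the rich arrays. Of 11 stress and immediate early genes 1 was higher and 2 lower, again near the shares of all features. Hspa1a, an inducible heat shock protein, had -0.71, 0.64 and -0.78 on the poor arrays, against 1.73, 2.30 and 1.58 on the rich arrays. Fos had 1.43, 2.37 and 1.91 on the poor arrays and 2.98, 2.58 and 2.71 on the rich arrays.

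**Figure D5:**
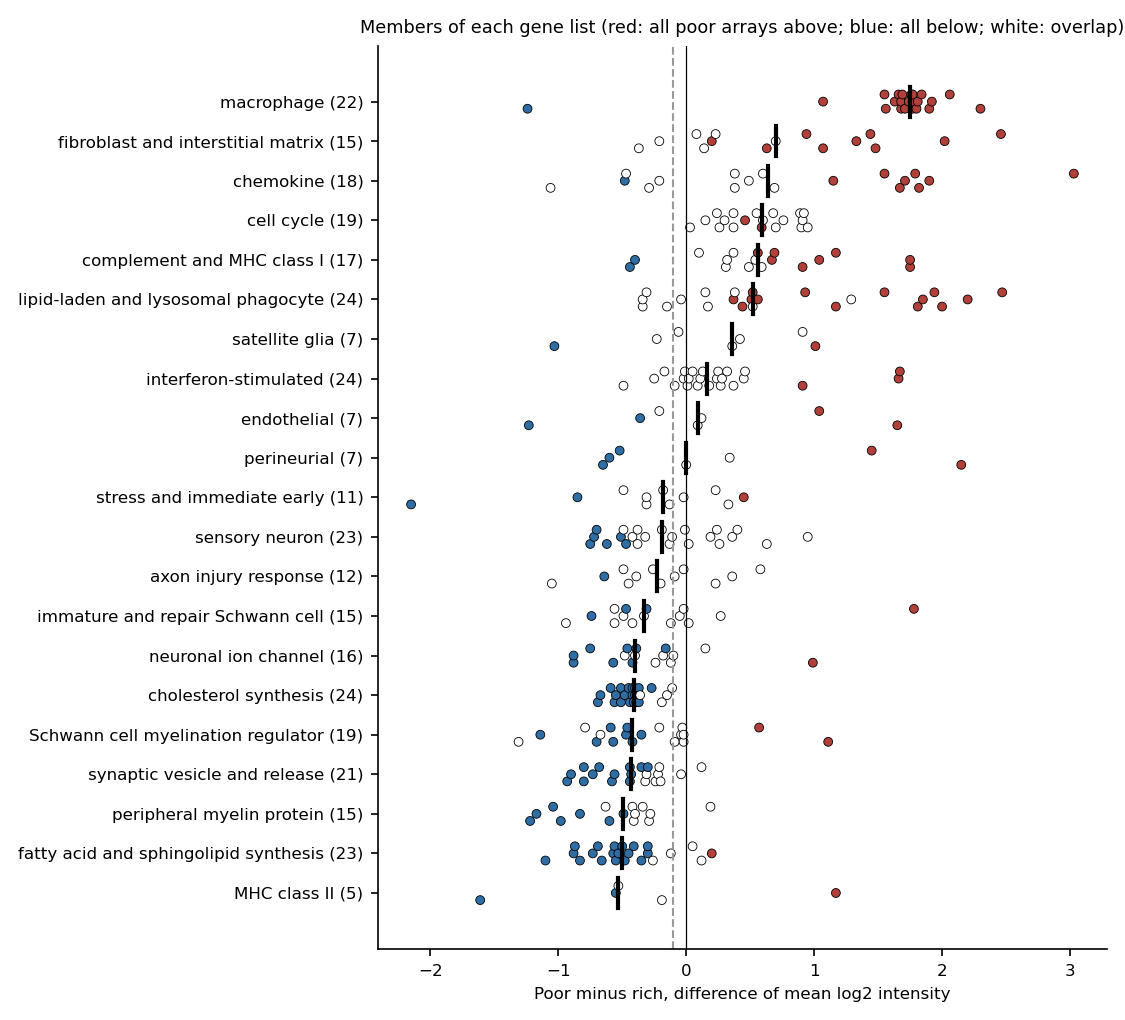
Difference of mean log2 intensity, poor minus rich (x axis), of each tested member of the gene lists with 5 or more (number in brackets), sorted by list median (black bar). Red points are higher and blue points lower on all 3 poor arrays, white points overlap, and the dashed line is the median of all features, -0.10.

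Over all features, 921 were at least 2-fold higher on the poor arrays and 348 at least 2-fold lower, of which 763 and 251 did not overlap. Genes with a symbol, no overlap and the largest differences follow. Cyp2f2, a cytochrome P450, had 3.20, -1.78 and 1.46 on the poor arrays and -4.04, -2.50 and -3.36 on the rich arrays. The spread among its poor arrays was wider than the difference of 4.26, and within batch 2 of the value table it was 0.72. Stra6, a receptor for the retinol carrier, had 1.86, -0.09 and -0.30 on the poor arrays and -3.36, -1.96 and -3.51 on the rich arrays. The matrix protein Smoc2 had 5.67, 4.22 and 5.06 on the poor arrays, against 1.17, 2.51 and 1.24 on the rich arrays. Sfrp4, a secreted Wnt inhibitor, had 6.31, 3.81 and 5.18 on the poor arrays and 1.34, 2.99 and 1.72 on the rich arrays. Col10a1 and Itgbl1 had differences of 3.17 and 3.09, and Sfrp4 had 3.09.

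The largest lower differences included Nppb, a natriuretic peptide of itch-sensing neurons, with -3.60, -2.28 and -3.63 on the poor arrays and -1.20, -0.69 and -1.36 on the rich arrays. Camkv, a neuronal kinase-like protein, had -2.68, -2.72 and -1.40 on the poor arrays and -1.09, -0.51 and 0.07 on the rich arrays. Disp3 had -4.09, -2.77 and -4.22 on the poor arrays, against -1.72, -1.68 and -1.61 on the rich arrays. Il17b, Tmc5 and Spint1 had differences of -2.07, -2.05 and -1.81. Mrrf, a mitochondrial ribosome factor, came first with -2.76, with -1.35, -1.36 and -1.03 on the poor arrays and 6.51, -0.96 and -1.0 on the rich arrays. Without array 1 of batch 2 its difference was -0.27. A few genes were well above background on all arrays of 1 set and none of the other, so their fold is a bound, set at the lowest signal well above background or at the dim probe's own signal where that was higher. Shisa3 was at least 4.51-fold and Hoxc12 at least 2.06-fold higher on the poor arrays. Chrna4, a nicotinic receptor subunit, was at least 3.09-fold and Cntn5, a neuronal adhesion protein, at least 2.99-fold higher on the rich arrays.

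Day 22 was set against day 10 over all batches, without regard to the split, by limma with Benjamini-Hochberg adjustment. Taking batches from the array files, 4.2% of features were higher and 5.43% lower at day 22. Taking them from the value table, the shares were 0.525 and 1.48%. The counts of higher genes were 14 of 22 for macrophage markers, 12 of 24 for phagocyte genes, 14 of 24 for interferon-stimulated genes and 10 of 17 for complement and class I genes. Under the value table's batches they were 0, 3, 0 and 2 in the same order. Gpnmb rose by 2.26 ± 0.38 (SE, n = 3 batches each, limma adjusted p = 0.0111, but 0.0716 under the value table's batches). Its levels were 5.51, 4.81 and 5.49 on the poor arrays and 3.38, 3.51 and 4.28 on the rich arrays, against 1.01 to 3.19 on the day 10 arrays, so both sets lay above day 10. H2-D1 passed both ways, at 1.06 ± 0.18 (SE with the array files' batches, limma adjusted p = 0.0118, and 0.0431 under the value table's). So did H2-DMb1, at 1.74 ± 0.21 (SE with the array files' batches, limma adjusted p = 0.00384, and 0.0285 under the value table's). Of 15 myelin proteins 1 was higher and 0 lower, and of 24 cholesterol genes 0 were higher and 1 lower. Under the value table's batches all these counts were 0. Cell cycle genes fell in 18 of 19 cases, or 15 under the other batches.

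Each set also had its own median difference from day 10, and both use the same day 10 arrays. For macrophage genes the medians were 2.52 on the poor arrays and 0.83 on the rich arrays. Cholesterol genes had -0.44 on the poor arrays and -0.05 on the rich arrays. Fatty acid and sphingolipid genes had -0.51 on the poor arrays and 0.04 on the rich arrays, and myelin proteins -0.43 on the poor arrays and 0.05 on the rich arrays. In these 3 lists the rich arrays were near day 10. Fibroblast genes had 0.73 on the poor arrays and 0.06 on the rich arrays. Interferon-stimulated genes had 0.68 on the poor arrays and 0.57 on the rich arrays, so both sets stood above day 10. The medians of all features were -0.08 on the poor arrays and 0.02 on the rich arrays.

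Whether the 3 batches of day 22 differed was tested by limma's moderated F test on the batch labels, which has no direction. In both versions batch 1 was poor on both arrays and batch 3 rich on both, so the test is not independent of the split. Taking batches from the array files, 0 of 22855 features (0%) passed, 2575 had an unadjusted p under 0.05 and the smallest adjusted p was 0.0862. Under the value table's batches 8.77% passed, or 2005 features, of which 446 were higher and 614 lower on all poor arrays. The spread in this test is that between technical arrays. By list, those that passed were 2 of 22 macrophage genes, 8 of 24 phagocyte genes, 2 of 24 interferon-stimulated genes, 6 of 17 complement and class I genes, 2 of 15 myelin proteins, 7 of 24 cholesterol genes and 8 of 23 fatty acid and sphingolipid genes. Of the 2 macrophage genes 1 was higher on all poor arrays and 1, Itgam, was lower. Of the 2 interferon-stimulated genes 1 was higher and the other overlapped. Among single genes, limma's F test under the value table's batches gave adjusted p = 0.0333 for Gjb1, 0.024 for Egr2, 0.0371 for Dhcr7, 0.0284 for Fasn, 0.0109 for B2m, 0.035 for Apoe and 0.0305 for Cxcl12. It gave 0.0697 for Lyz2 and 0.291 for Ifit1, which did not pass. Gjb1, Egr2, Dhcr7, Fasn and Cxcl12 had some of the largest differences of their lists. Their p-values are therefore no separate support for a difference between poor and rich arrays. The count over all features was 222 without array 1 of batch 1.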

How the data were processed

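The authors deposited, per the file headers, intensities from Agilent Feature Extraction 10.7.1.1 scans of 18 one-colour arrays, with 93 to 181 outlier spots and 0 saturated spots flagged per array. The submitters' processing notes name version 10.7.1. The authors' deposited value table holds intensities of the same arrays with 1 distribution on every array. Its log2 was used as an alternative.

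Processed signals were taken to log2 minus the array's 75th percentile. Control spots and outlier flags were left out, and spots of a probe averaged. Of 55681 probes 26582 had a symbol through RefSeq accessions. The filter, detection above background on the 6 arrays of 1 day or more, left 30432 probes and 22855 features, the brightest probe standing for a gene. Tests used limma 3.58.1 in R 4.3.3 with Benjamini-Hochberg adjustment at 0.05, checked on simulated data. Precision is limited by how few arrays there are.

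The members and lists were chosen with earlier results of these data known, so poor minus rich has no test. Named were the 16 neuronal genes, the 4 largest members of each list (2 for other cell types) well above background without overlap, the 8 largest differences each way, 24 fixed genes and the 2 largest bounds each way. Further members were named after their values were seen, and some genes of these lists are not reported here. Alternatives were normexp with offset 50 and quantile normalization, the value table, probe means, other filters, median scaling, leaving out arrays, slide and batch.

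Batch numbers recur on each day, and the series' design text calls batches separate embryo pools, without saying that a number is the same pool on every day. Correlations of batch deviations between days ran from -0.13 to 0.37 with the array files' batches and from -0.08 to 0.46 with the value table's.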

Additional observations from a re-analysis of the deposited data

Results flagged for a closer look

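Among the 6 day 22 arrays, 149 genes and list means were checked for a single array far from the other 5, and 10 stood out. Chance gives about 1 in 20 for independent items, so the number was near that rate. The items are not independent, and many were named for their poor minus rich difference. Array 1 of batch 1, a poor array, stood apart in 6 genes. It had 0.71 for Cldn19 (others 2.12 to 2.84), -0.04 for Drp2 (1.40 to 1.99), 0.67 for Ugt8a (1.78 to 2.36), 4.12 for S100b (5.04 to 5.32), 3.12 for Tyrp1 (5.45 to 6.32) and 0.89 for Oas2 (-2.90 to -1.97). The first 4 are genes of myelinating or other Schwann cells. Array 1 of batch 3, a rich array, stood apart in the mean of the cell cycle list at -1.29 (others -0.22 to 0.27), in Mki67 at -0.91 (1.04 to 1.63) and in Col1a1 at 6.38 (6.60 to 6.67). Array 1 of batch 2, also rich, had 6.51 for Mrrf (-1.36 to -0.96).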

How the results depend on the processing

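The same 3 arrays were poorest under each normalization, filter and probe rule tried. The synaptic list also kept these 3 arrays lowest, though not in the same order, with a difference of its means of -0.45. The sensory list kept 2 of the 3 with -0.14. Without array 2 of batch 1, 3779 features were higher and 7589 lower on all poor arrays. Within slide 2 the medians were -0.05 for myelin and -0.35 for fatty acid genes, and within batch 2 as filed -0.15 and -0.34. Within batch 2 of the value table they were -0.50 for interferon-stimulated and -0.26 for cholesterol genes, and causes were not tested. For the fatty acid and cholesterol lists the direction was fixed by the choice of arrays. Over all alternatives, 301 list medians and 1711 differences of named genes moved by less than the spread between arrays and 44 and 145 moved by more. Features that differed between batches numbered 1 without the filter, 5, 12, 12, 14, 15 and 22 without single arrays, and 2005 with the value table's batches. With those batches they numbered 222, 742, 899, 1770, 1903 and 2624 without single arrays, the lowest without array 1 of batch 1. Between day 22 and day 10, 478 were higher and 674 lower without the filter, which tested more features, 120 and 338 with the value table's batches, 2087 and 2990 with slide as a block, and 1938 lower with median scaling. Without single batches the ranges were 263 to 1612 higher and 483 to 1883 lower. The batch as a replicate block gave 1196 higher and 1379 lower, and 317 and 399 with the value table's batches. Few arrays and 2 versions of the batches limit these counts.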
